A study of Saccharomyces cerevisiae with 4 samples.

Results

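The genes described here carry glucose from its first phosphorylation to fructose bisphosphate in *Saccharomyces cerevisiae*, together with the enzyme that runs the last of these steps backwards. They are *HXK1*, *HXK2*, *GLK1*, *EMI2*, *PGI1*, *PFK1*, *PFK2*, *PFK26*, *PFK27* and *FBP1*. They were chosen by name for their place in the pathway and located by symbol in the S288c reference (R64-1-1), where they are 10 of 6002 nuclear protein-coding genes. Counts were made for the 5710 genes that reach 300 bp. Capped RNA 5′ ends, each marking where a transcript began, were sequenced in 4 libraries, 2 from BY4741 and 2 from set2Δ. BY4741 is the wild-type laboratory strain of mating type a with the alleles his3Δ1, leu2Δ0, ura3Δ0 and met15Δ0, and set2Δ carries the kanMX4 cassette in place of *SET2* in the same background. Both were grown at 30 °C to an optical density near 1 in YPD, with 1% glucose per the labels. The comparison asks how transcription starts at and inside these genes differed without Set2. The set2Δ libraries stand for 1 deletion strain, and no source used here says that replicates came from separate cultures, so the p-values measure only the spread between libraries, which may be technical.

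Glucose entering the yeast cell is phosphorylated by the hexokinases Hxk1 and Hxk2 and by the glucokinase Glk1. Hxk2 is the main hexokinase of cells growing on glucose and also takes part in glucose repression, whereas *HXK1* and *GLK1* are known as genes that glucose represses. Phosphoglucose isomerase (Pgi1) then makes fructose phosphate, and phosphofructokinase, built from the Pfk1 and Pfk2 subunits, commits it to glycolysis. Pfk26 and Pfk27 make the small sugar phosphate that activates phosphofructokinase and inhibits fructose bisphosphatase (Fbp1), the gluconeogenic enzyme whose gene is shut off on glucose. Set2 methylates lysine 36 of histone H3 over transcribed genes, and its loss is known to permit initiation inside some of them.

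The libraries held 452888 and 375442 counts in BY4741 against 1267578 and 1099482 in set2Δ, a mean depth 2.86 times as high in the mutant. *SET2* itself had 7 and 2 counts inside the gene in BY4741 against 0 and 1 in set2Δ, and 24 and 11 against 13 and 11 in the window around its start, part of which lies upstream of the coding sequence. The deleted markers *LEU2* and *MET17* had no count around their starts in any library, and *URA3* had 0 and 1 in BY4741 against 0 and 0 in set2Δ. *HIS3*, present as his3Δ1, had 179 and 138 counts around its start in BY4741 against 265 and 247 in set2Δ. Inside the gene it had 0 and 1 against 0 and 1. *STE2*, a gene of mating type a, had 118 to 253 counts around its start. Of the genes of mating type alpha, *MF(ALPHA)1* had 2 and 2 counts in BY4741 against 3 and 12 in set2Δ, and *STE3* 2 and 0 against 0 and 0. Heights of single positions did not follow depth. Positions with 16 counts outnumbered those with 14 in all 4 libraries, and among genes with 101 to 300 counts around the start in BY4741 replicate 1, set2Δ replicate 1 held 2.41 times the counts of BY4741 replicate 2, against 8.00 times among genes with 1 to 10. The ratio of the library totals was 3.38. Inside genes the same ratio went from 10.1 among genes with 1 to 3 counts to 3.69 among those with 31 to 100. Well-used genes came out lower in set2Δ as a class, and the part of position heights in this was not tested. Each member tested around its start, and most of those tested inside the gene, are set beside genes of their own level below.

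The sequence is shown around the main start of each gene, the position with most counts over all libraries in the window around its start. Strain differences were counted over that whole window, of which the main start held only a part. In *PGI1* this part was 4.56 to 7.96% of the counts of a library. Each sequence is read from the R64 reference, 5′ to 3′ on the coding strand, with the base before the start and the first transcribed base in capitals.
HXK1: ctcttagcgcaatatatagCAgaagagcaa
HXK2: gctttttctttgaaaaggtTGtaggaatat
GLK1: gtgcccaactcagcttccgTAaaccacaac
EMI2: taggaagtttaaatagaaaCAgatatcagt
PGI1: attttaatacatattcctcTAgtcttgcaa
PFK1: ttctttattctcaaccatcTAaagaatatt
PFK2: ttcttatacctcatttgaaCAatagaacta
PFK26: tttaacaataaaaggtataCAtatatatat
PFK27: ttttggtgccacagcaaacCAacttatttg
All 9 have a pyrimidine followed by a purine, the dinucleotide favoured at yeast initiation sites. Minus-strand positions were moved by a shift chosen for this dinucleotide, so for genes of that strand it is partly set by that choice. The start of *HXK1* lay on the minus strand of chromosome VI at 255153, 104 bp upstream of the coding sequence (253592 to 255049). That of *HXK2* was at 23888 on the plus strand of chromosome VII, 47 bp upstream of a coding sequence that runs from 23935 to 25395. *GLK1* began at 50796 on the plus strand of chromosome III, 42 bp upstream (50838 to 52340), and *EMI2* at 1476532 on the minus strand of chromosome IV, 56 bp upstream (1474974 to 1476476). The start of *PGI1* was at 613942 on the minus strand of chromosome II, 42 bp upstream (612236 to 613900). *PFK1* began 233 bp upstream of its coding sequence (970771 to 973734), at 973967 on the minus strand of chromosome VII, far above *PFK2*, whose start lay 55 bp upstream at 674821 on the minus strand of chromosome XIII (671887 to 674766). The kinase genes *PFK26* and *PFK27* also had long leaders, with starts 178 and 222 bp upstream on the minus strands of chromosomes IX (163278 to 165761) and XV (67561 to 68754). No main start is given for *FBP1* (chromosome XII, 873746 to 874792, minus strand), which had a single count around its start. Every 43-base stretch of both windows of all 10 genes was unique in the genome, so that counts could be assigned even between paralogues such as *HXK1* and *HXK2*, whose coding sequences are 78.5% identical.

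Counts around the start were summed from 250 bp upstream through the first 200 bp of the coding sequence (the 5′ window), and strains were compared with the quasi-likelihood test of edgeR, with p-values adjusted over all genes tested by the method of Benjamini and Hochberg and a threshold of 0.1. Levels are given as CPM, the count of a gene relative to the scaled sum of all 5′ windows of the library. Of the 9 members with enough counts to test, 7 were lower in set2Δ, none was higher, and *PFK26* and *PFK27* were not called. Over all 5068 genes tested 62.6% were called, 30.2% as lower and 32.4% as higher, and the median log2 fold change was 0.11, against -1.0 over the 9 members. At the members' own level the share was much higher, since 79.3% of the 937 genes with 101 to 300 counts in BY4741 replicate 1, where 6 of the 7 lower members lie, were called lower (median -0.62), and 31.3% of those with 31 to 100, the class of *EMI2*. Cultures were measured in bulk and scaled to their own totals, so fewer cells using a promoter and less RNA per cell cannot be told apart.

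**Figure D1:**
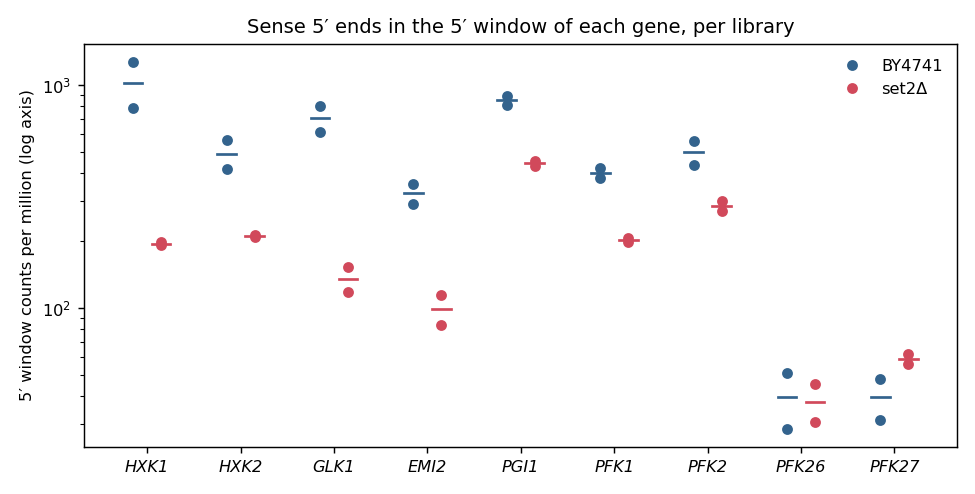
CPM in the 5′ window (log axis) for 9 genes, with 1 point per library and a bar at the mean of each strain. In *HXK1*, *HXK2*, *GLK1*, *EMI2*, *PGI1*, *PFK1* and *PFK2* both set2Δ libraries sit below both BY4741 libraries, in *PFK26* the strains overlap, and in *PFK27* both set2Δ libraries sit above.

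The largest decreases were in *HXK1* and *GLK1*. The 5′ window of *HXK1* held 247 and 321 counts in BY4741 against 194 and 164 in set2Δ, so that it fell in raw counts although the mutant libraries were deeper. In CPM it fell from 786 and 1262 to 197 and 190, or from 1024 ± 337 to 194 ± 5.25 (SD, n = 2). The log2 fold change was -2.38 (SE 0.13, adjusted p = 8.02e-75). The BY4741 libraries differed more from each other than the set2Δ libraries did, and the strains did not overlap. *GLK1* held 193 and 204 counts in BY4741 against 149 and 101 in set2Δ. Its level went from 708 ± 133 to 134 ± 24.5 CPM (SD, n = 2), and its log2 fold change was -2.37 (SE 0.13, adjusted p = 1.30e-66). An annotated open reading frame, YCL042W, overlaps the start of *GLK1* on the same strand, and these counts were given to both. Without shared positions *GLK1* could not be tested.

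*EMI2*, the paralogue of *GLK1* with 70.0% of coding bases in common, had 92 and 91 counts in BY4741 against 112 and 72 in set2Δ. These correspond to 293 and 358 CPM in BY4741 and 114 and 83.4 CPM in set2Δ, and the log2 fold change was -1.69 (SE 0.16, adjusted p = 8.96e-24). The decrease in *HXK2* was smaller, with 131 and 144 counts in BY4741 against 207 and 179 in set2Δ. Scaled, it went from 491 ± 106 to 209 ± 2.32 CPM (SD, n = 2), with a log2 fold change of -1.21 (SE 0.13, adjusted p = 4.92e-18). In *HXK2* the raw count rose with depth, but by less than depth itself, which sets it apart from *HXK1* and *GLK1*.

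The isomerase and phosphofructokinase genes showed smaller decreases. *PGI1* held 256 and 226 counts in BY4741 against 447 and 373 in set2Δ, or 851 ± 52.4 against 444 ± 16.1 CPM (SD, n = 2), and its log2 fold change was -0.94 (SE 0.12, adjusted p = 2.66e-13). *PFK1* had 120 and 108 counts in BY4741 against 193 and 177 in set2Δ. It fell from 403 ± 30.3 to 201 ± 6.12 CPM (SD, n = 2), with a log2 fold change of -1.0 (SE 0.14, adjusted p = 7.82e-12). *PFK2*, the gene of the other subunit, had 137 and 142 counts in BY4741 against 266 and 259 in set2Δ, and fell from 497 ± 86.6 to 285 ± 20.8 CPM (SD, n = 2), with a log2 fold change of -0.79 (SE 0.13, adjusted p = 1.58e-08). The call of *PFK1* was lost when distinct positions replaced counts (log2 fold change -0.43, adjusted p = 0.24) and in a window of 100 bp upstream, which leaves out its main start (-0.23, adjusted p = 0.83). The 5′ window ends 250 bp upstream, beside a well-used *PFK1* position 247 bp upstream, and so cuts close to its starts. A window from 400 bp upstream gave -0.84 for *PFK1*, still called.

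The genes of the regulatory sugar phosphate were used little, and neither passed the test. *PFK26* had 9 and 13 counts in BY4741 against 30 and 39 in set2Δ, or 28.6 and 51.1 CPM against 30.5 and 45.2 CPM. The strains overlapped, and the log2 fold change was -0.05 (SE 0.38, adjusted p = 0.92), or -0.79 with offsets that remove a drift with level (adjusted p = 0.12). *PFK27* had 15 and 8 counts in BY4741 against 61 and 48 in set2Δ, with 47.7 and 31.5 CPM against 62.1 and 55.6 CPM, and its log2 fold change of 0.54 (SE 0.33, adjusted p = 0.15) did not pass the test. It was called higher with libraries scaled to their totals (0.73), with the minus strand as listed (0.59) and with its highest position left out (1.11). *FBP1* had 0 and 0 counts in BY4741 against 1 and 0 in set2Δ around its start, so that no difference was detectable at this depth.

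Set beside genes of like level, *HXK1*, *GLK1* and *EMI2* stood lowest. The levels were taken from BY4741 replicate 1 and the ratios from set2Δ replicate 1 over BY4741 replicate 2, so that the libraries that set the class do not enter the ratio. The ratio of *HXK1* was 0.604 and that of *GLK1* 0.730, where their class of 937 genes with 101 to 300 counts had a ratio of 2.41 over its summed counts. Of that class, 0.213% of genes had a lower ratio than *HXK1* and 0.320% a lower ratio than *GLK1*. *EMI2*, in the class of 31 to 100 counts, had a ratio of 1.23 against 3.74 for the class, and 1.23% of its 1702 genes were lower. *HXK2* at 1.44 had 8.32% of its class below it. *PFK1* at 1.79, *PFK2* at 1.87 and *PGI1* at 1.98 had between 21.0 and 28.2% of that class below them, and so lay within the lower part of genes of their level. Offsets that remove a drift with level (cyclic loess) brought the log2 fold change of *PGI1* to -0.21, of *PFK2* to -0.31, of *PFK1* to -0.66 and of *HXK2* to -0.81, all still called, while *HXK1*, *GLK1* and *EMI2* stayed at -1.81, -1.99 and -1.62. *PFK27*, with a ratio of 7.63 in a class of 11 to 30 counts at 5.79, had 66.6% of its class below it, and *PFK26*, at 2.31 in a class of 1 to 10 counts at 8.00, had 6.97%. With the BY4741 libraries exchanged, so that replicate 2 set the class, the shares of *HXK1*, *GLK1* and *EMI2* were 0, 0.535 and 1.27%, that of *HXK2* was 21.8%, those of *PFK1* and *PGI1* were 24.0 and 33.9%, *PFK2* had 366 of 747 genes below it, and *PFK26* and *PFK27* were at 29.5 and 26.2%, so that the places of the genes with few counts were not fixed.

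The most used start position of each gene showed how counts compare before any scaling. At its main start *HXK1* had 25 and 27 counts in BY4741 against 18 and 18 in set2Δ. The main start of *GLK1* had 16 and 18 counts against 15 and 15, that of *EMI2* 15 and 15 against 15 and 10, and that of *HXK2* 28 and 25 against 33 and 22. At the main start of *PGI1* there were 16 and 18 counts in BY4741 against 23 and 17 in set2Δ, at that of *PFK1* 16 and 16 against 19 and 18, and at that of *PFK2* 17 and 16 against 17 and 18. Main starts of *PGI1*, *PFK1* and *PFK2* thus held nearly equal raw counts in libraries of very different depth. Away from such sites raw counts went up with depth in *PFK2* and down in *HXK1*. Outside positions with 8 or more counts in a BY4741 library, *PFK2* had 58 and 74 counts in BY4741 against 170 and 166 in set2Δ, whereas *HXK1* had 39 and 47 against 23 and 24 and *GLK1* 47 and 54 against 48 and 19. With these positions left out, the log2 fold change of *HXK1* was -2.98, of *GLK1* -2.70, of *EMI2* -2.01 and of *PFK2* -0.77, and all 7 genes were still called lower.

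**Figure D2:**
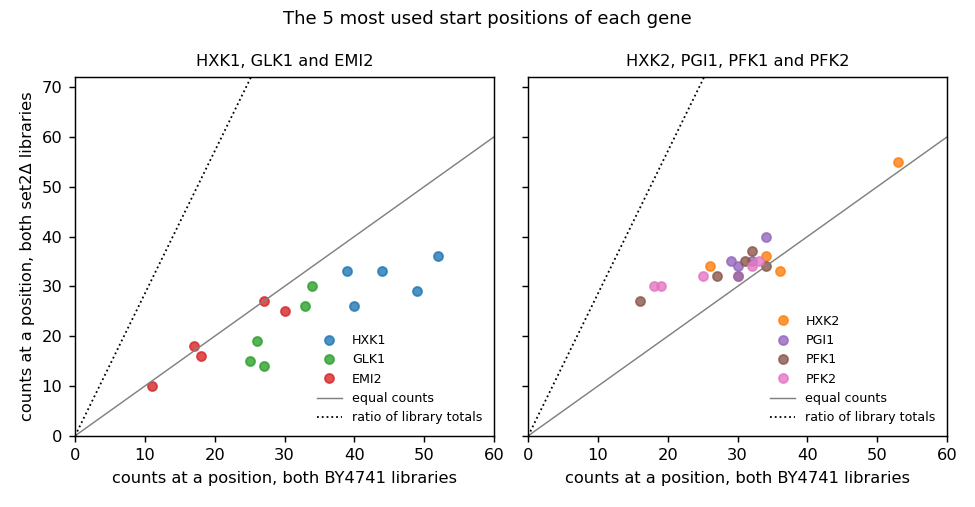
Raw counts at the 5 most used start positions of each of 7 genes, summed over the BY4741 libraries (horizontal) and over the set2Δ libraries (vertical), with 1 point per position, a solid line of equal counts and a dotted line at the ratio of the library totals. All positions of *HXK1* and *GLK1* lie below the line of equal counts, those of *HXK2* and *PGI1* have set2Δ to BY4741 ratios of 0.917 to 1.31, and those of *PFK1* and *PFK2* reach 1.69 and 1.67, above that line but below the ratio of the totals (2.86).

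The median start position moved by at most 8 bp between libraries in *HXK1*, *HXK2*, *PFK1* and *PFK2*. The median distance of a count from the coding sequence of *HXK1* was 107 and 108 bp in BY4741 and 106.5 and 106 bp in set2Δ, and it was 45 bp in all libraries for *HXK2* and 55 bp in all libraries for *PFK2*. In *PFK1* it was 233 bp in both BY4741 libraries and 226 and 225 bp in set2Δ. Counts more than 250 bp upstream did not enter these medians, and the *PFK1* starts lie close to that edge. The share of counts at the main start was lower in set2Δ in several genes. It was higher in *GLK1*, with 8.29 and 8.82% in BY4741 against 10.1 and 14.9% in set2Δ, and in *HXK1* the strains overlapped. In *PFK2* it went from 12.4 and 11.3% to 6.39 and 6.95%, in *HXK2* from 21.4 and 17.4% to 15.9 and 12.3%, and in *PFK1* from 13.3 and 14.8% to 9.84 and 10.2%. The main start of *PFK27* took 53.3% of its 5′ counts in BY4741 replicate 1 (95% Wilson interval 30.1 to 75.2) and 62.5% in replicate 2 (30.6 to 86.3). In set2Δ it took 26.2% (16.8 to 38.4) and 33.3% (21.7 to 47.5). Both shares were lower in set2Δ, but the intervals, which cover counting error only, overlap. The main start of *PFK27* held 16 counts in each set2Δ library, and those of *PFK1* and *PFK2* 17 to 19, at or near the height where positions pile up, and the part of this in the lower shares was not tested. The number of distinct start positions of *HXK1* was 35 and 40 in BY4741 against 26 and 30 in set2Δ, fewer in the deeper libraries, whereas *PFK1* used 31 and 24 positions in BY4741 against 46 and 49 in set2Δ. The pyrimidine-purine dinucleotide stood at 56.5% of the 5′ counts of *HXK1*, the lowest share of the 9 genes, and at 73.0 to 95.6% in the others.

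Inside the genes, from 200 bp after the coding start to the end, 6 of the 10 members were lower in set2Δ and 1, *PFK26*, was higher. Over all 4728 genes tested in this internal window 17.8% were lower and 24.9% higher (42.7% in all), with a median log2 fold change of 0.15, against -1.65 over the 10 members. Increases made up 58.3% of the calls over all genes, 84.9% when libraries were scaled to their totals (median log2 fold change 0.83) and 79.4% with the scaling of the 5′ windows (0.64), and under both *HXK1*, *HXK2*, *GLK1*, *PGI1*, *PFK1* and *PFK2* were still called lower. CPM values of this window are scaled to internal counts and are not on the scale of the 5′ window. In *HXK1* the counts were 12 and 33 in BY4741 against 5 and 7 in set2Δ, or 244 and 910 CPM against 22.6 and 40.9 CPM, a log2 fold change of -4.07 (SE 0.43, adjusted p = 1.31e-18). Its size rested on the unlike BY4741 libraries, since leaving out BY4741 replicate 2 gave -3.03 and leaving out BY4741 replicate 1 gave -4.86. Inside *GLK1* there were 66 and 60 counts in BY4741 against 58 and 32 in set2Δ, which is 1499 ± 221 against 224 ± 53.1 CPM (SD, n = 2), with -2.69 as the log2 fold change (SE 0.24, adjusted p = 2.15e-27). *HXK2* had 33 and 28 against 58 and 30 counts and a log2 fold change of -1.68 (SE 0.28, adjusted p = 3.31e-08).

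Internal counts of the next enzymes fell as well, and no internal position of these genes held more than 4 counts in any library. *PGI1* had 40 and 39 counts in BY4741 against 70 and 49 in set2Δ, *PFK1* 49 and 43 against 61 and 44, and *PFK2* 42 and 52 against 64 and 50. Their log2 fold changes were -1.61, -2.01 and -1.93 (adjusted p = 2.51e-09, 1.97e-14 and 9.98e-14), and the scaled levels of the strains did not overlap in any of them. Compared with 220 genes of 31 to 100 internal counts, whose set2Δ to BY4741 ratio was 3.69, *GLK1* at 0.967 had 3.18% of the class below it, *PFK2* at 1.23 had 6.82%, *PFK1* at 1.42 had 9.09%, *PGI1* at 1.79 had 16.4% and *HXK2* at 2.07 had 24.1%. The ratio of *HXK1* was 0.152 in a class of 905 genes at 6.65, with 2 genes below it. That ratio uses BY4741 replicate 2, where *HXK1* was high, and with the BY4741 libraries exchanged it was 0.417, with none of 137 genes below it. The exchange put *GLK1* at 4.38%, *PFK2* at 31.4%, *PFK1* at 17.5%, *PGI1* at 43.1% and *HXK2* at 18.5% of their classes. Of the 220 genes, 75.0% were called lower.

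*PFK26*, one of the kinases of the regulatory sugar phosphate, was the only member called higher inside the gene. Only 4 and 1 counts lay there in BY4741 against 57 and 49 in set2Δ, or 81.4 and 27.6 CPM against 257 and 286 CPM. The log2 fold change was 2.19 (SE 0.54, adjusted p = 0.00032), and the strains did not overlap. With so few BY4741 counts its size is poorly fixed, and it ranged from 1.65 to 3.25 with single libraries left out. Its ratio was 57 in a class of 1943 genes of 4 to 10 counts in BY4741 replicate 1 at 9.45, and 92.7% had a lower ratio. That ratio rests on the 1 count of BY4741 replicate 2. Genes without a count in that library have no ratio but stay in the total. With the BY4741 libraries exchanged the ratio was 14.25 in a class at 7.92, and 76.4% of that class had a lower ratio. A stretch from 980 to 1430 bp after the coding start, picked after the profile was seen and so not tested, held 2 and 0 of these counts in BY4741 against 30 and 27 in set2Δ, spread over 35 positions. A second stretch from 2400 bp to the end of the gene held 0 and 0 counts against 13 and 9. The internal window of its paralogue *PFK27* had 1 and 0 counts in BY4741 against 7 and 8 in set2Δ, which did not pass the test (adjusted p = 0.38).

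**Figure D3:**
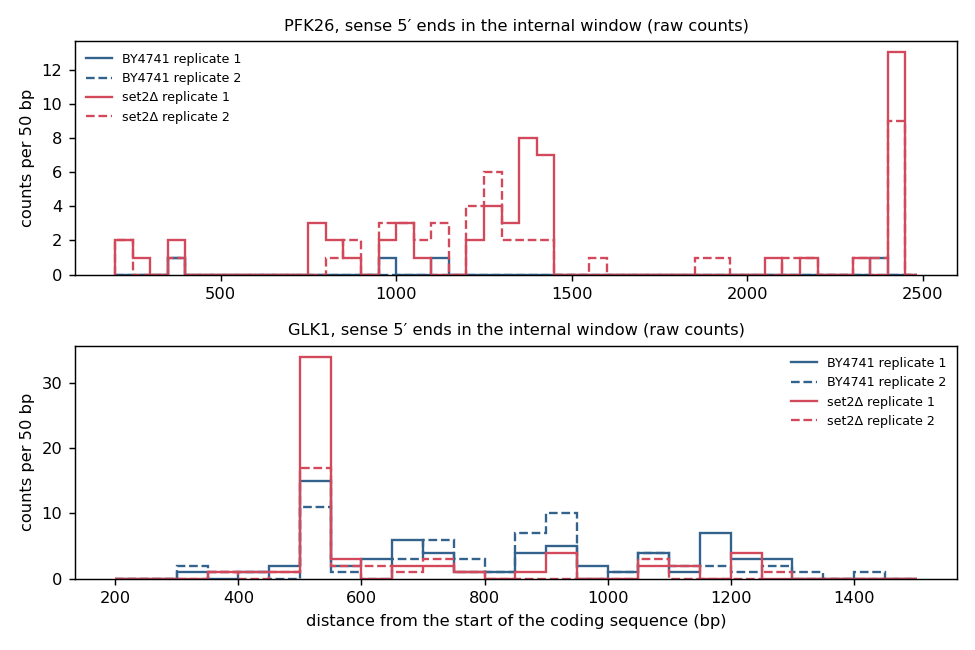
Raw counts of sense 5′ ends per 50 bp of the internal window against distance from the coding start, with 1 line per library, for *PFK26* (top) and *GLK1* (bottom). In *PFK26* the set2Δ libraries have counts from 980 to 1430 bp and near 2400 bp where BY4741 has almost none. In *GLK1* the raw counts of set2Δ exceed those of BY4741 near 500 bp, by less than the ratio of the library totals (2.86). Beyond 600 bp they are low.

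In *GLK1* the place of the internal counts differed between strains. The first of 3 equal parts of its internal window, from 200 to 634 bp, held 33.3 and 26.7% of the internal counts in BY4741 and 69.0 and 68.8% in set2Δ. In counts, this part had 22 and 16 in BY4741 against 40 and 22 in set2Δ, and the rest of the window 44 and 44 against 18 and 10. Much of the first part came from 490 to 560 bp, a stretch picked after the profile was seen, with 16 and 11 counts in BY4741 against 36 and 17 in set2Δ. Raw counts of the first part and of this stretch rose by less than the ratio of the library totals (2.86), so they were not higher relative to depth. With 2 libraries a strain, the smallest two-sided p of an exact permutation test is 0.33, and the shares are given without a test. *EMI2* and *FBP1* did not pass the test inside the gene. Inside *EMI2* there were 4 and 8 counts in BY4741 against 20 and 21 in set2Δ (log2 fold change -0.43, SE 0.52, adjusted p = 0.57), of which the stretch from 1000 to 1100 bp, picked in the same way, held 2 and 1 against 12 and 12. *FBP1* had 3 and 1 against 13 and 6 (log2 fold change 0.04, SE 0.87, adjusted p = 0.98).

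A model over both windows, in which each library was a factor, then asked whether the internal change of a gene differed from its 5′ change. Of 9 members tested, the internal change was called higher than the 5′ change in 2 and lower in 3, where 8.03 and 6.45% of all 4509 genes tested (14.5% in all) were called in these directions. No share among genes of like level was computed for this test, and the drift with level differed between windows. The median log2 fold change was -0.62 among 5′ windows of 101 to 300 counts. It was -1.03 among internal windows of 31 to 100 (the class of *PFK1* and *PFK2*) and -0.39 among those of 11 to 30 (that of *HXK1*). The difference was 2.29 in log2 for *PFK26* (SE 0.72, adjusted p = 0.022) and 1.28 for *EMI2* (SE 0.49, adjusted p = 0.075). It was -1.10 for *PFK2* (SE 0.27, adjusted p = 0.0011), -0.98 for *PFK1* (SE 0.28, adjusted p = 0.0074) and -1.70 for *HXK1* (SE 0.47, adjusted p = 0.0062). In *PGI1*, *HXK2* and *GLK1* it was -0.65, -0.44 and -0.31, with adjusted p of 0.105, 0.38 and 0.52. The calls of *PFK26*, *EMI2* and *HXK1* were each lost under several settings, and *PGI1* gained the call under 6 of 18 settings. *PFK26* was not called without BY4741 replicate 2 (1.31, adjusted p = 0.40), without set2Δ replicate 1 (1.98, adjusted p = 0.15) or without set2Δ replicate 2 (2.37, adjusted p = 0.11). *EMI2* was not called without BY4741 replicate 1 (0.85) or without set2Δ replicate 2 (0.76), and *HXK1* not without BY4741 replicate 2 (-1.01) or without set2Δ replicate 1 (-1.35). *HXK1* also lost it with thinning to 1 depth (-1.39) and with positions of 8 or more counts left out, in any library (-0.91) or in BY4741 only (-1.06). *PFK2* was called under each of the 18 other settings run.

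**Figure D4:**
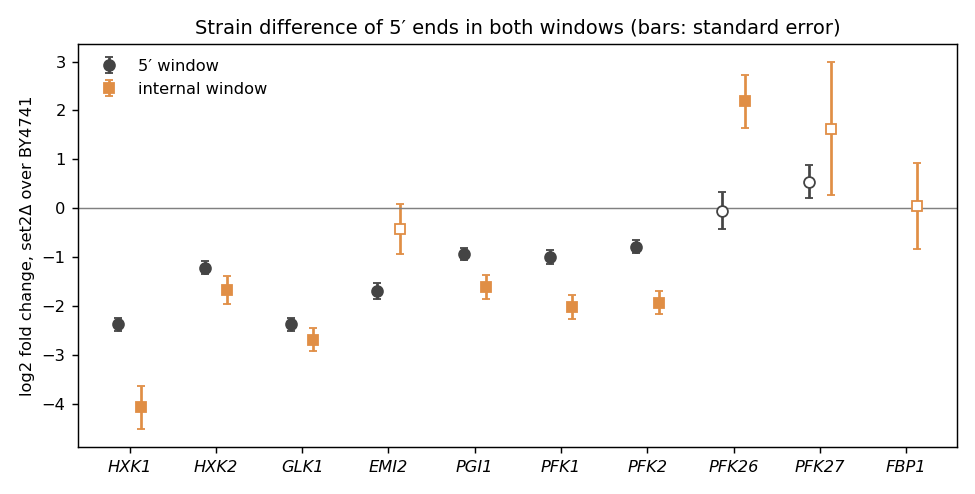
Log2 fold change of set2Δ over BY4741 (vertical) for each gene in the 5′ window (circles) and the internal window (squares), with bars of 1 standard error and filled symbols for genes called at an adjusted p below 0.1. *HXK1* is lowest in the internal window at -4.07, and *PFK26* is the only gene with a filled symbol above 0, at 2.19 inside the gene.

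Antisense 5′ ends opposite the internal window were rare. They reached 10 counts over the 4 libraries in 4 members, none of which was called, while 21.4% of the 1471 genes tested were called, 16.9% as higher and 4.49% as lower. Opposite *FBP1* there were 6 and 4 counts in BY4741 against 23 and 18 in set2Δ, more than its sense strand held in either strain. Scaled to antisense counts these were 1436 ± 265 and 1102 ± 38.8 CPM (SD, n = 2), with a log2 fold change of -0.40 (SE 0.58, adjusted p = 0.64), and its sign turned with libraries scaled to their totals (0.51). Of these counts the end of the coding sequence from 980 bp on, a stretch picked after the profile was seen, held 6 and 2 in BY4741 against 22 and 16 in set2Δ. Opposite *EMI2* there were 0 and 0 counts in BY4741 against 10 and 3 in set2Δ (adjusted p = 0.15), which was called higher with scaling to library totals or to 5′ counts (adjusted p = 0.029 and 0.047). *GLK1* had 2 and 3 against 4 and 2, and *PFK26* 2 and 2 against 10 and 5. Opposite each of *HXK1*, *HXK2*, *PGI1*, *PFK1*, *PFK2* and *PFK27* no library had more than 1 count.

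Short promoter motifs were searched from 250 bp before to 50 bp after the coding start, on both strands, in 5709 promoters. Main starts of *HXK1*, *PFK1*, *PFK26* and *PFK27* lay 104, 233, 178 and 222 bp upstream, so much of their windows is transcribed leader. Little sequence upstream of the *PFK1* and *PFK27* starts was searched, so a missing match there says little. Within this window the stress element AGGGG was found in *GLK1* and *EMI2* alone among the members, and in 21.3% of all promoters. It stood 3 times within 30 bases of the *GLK1* promoter, from 187 to 158 bp upstream (chromosome III, 50651 to 50680, plus strand), shown with the matches of either strand in capitals.
GLK1: gtcaaCCCCTttcAGGGGgcCCCCTatctt
*EMI2* held it once, 173 bp upstream. The core of the site of the glucose repressor Mig1, searched as CCCCA, was present in *GLK1* (2 matches), *HXK2* (1 match) and *FBP1* (1 match), and in 17.9% of promoters. CTTCC, the core of the site of the glycolytic activator Gcr1, was found in 6 members and 46.4% of promoters, and CACCCA, searched for Rap1, in *HXK1* and *PFK27* and in 7.72% of promoters. CCAAT and TATAAA were each found in 5 members and in 43.3 and 45.3% of promoters. Several matches lay downstream of the main start of their gene. Among them were both of CACCCA, 37 bp upstream of the coding start in *HXK1* and inside the coding sequence in *PFK27*. The TATAAA matches of *PFK1*, 36 and 32 bp upstream of the coding start, and every CTTCC match of *PFK27* were also downstream. Matches are descriptions of the sequence.

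Neighbouring parts of sugar metabolism were counted in the same 5′ window tests. In lower glycolysis 11 of 11 genes tested were lower, with a median log2 fold change of -1.73, among them *TDH1* at -2.25 and *TDH3* at -1.96, which encode glyceraldehyde phosphate dehydrogenases. The share over all genes was 30.2%, but 7 of the 11 had over 300 counts in BY4741 replicate 1, where 99.4% of genes with up to 1000 were called lower (median -1.06). With cyclic loess offsets 10 of the 11 were lower (median -0.87), against 22.8% of all genes. All 11 were also lower in the internal window, against 17.8% over all genes. Of these, 7 had over 100 internal counts in BY4741 replicate 1, above the highest class taken, 31 to 100 counts, where 75.0% were called lower. With loess offsets all 11 were lower there as well, against 19.5% of all genes. In 9 the internal decrease was called larger than that at the 5′ end (6.45% over all genes, with no share at their level computed). Of the genes that link glucose phosphate with glycogen, trehalose and the pentose phosphate pathway, 9 of 12 were lower and none was higher. Among them were *PGM2* (phosphoglucomutase) at -2.39 and *GPH1* (glycogen phosphorylase) at -2.08, and with loess offsets 9 were lower as well. Of the glucose regulators 9 of 14 were higher and 1 lower, where 32.4% of all genes were higher. Of these 14, 9 had 30 counts or fewer in BY4741 replicate 1, a level at which 51.0% of genes with 11 to 30 counts and 52.7% of those with 1 to 10 were called higher, and with loess offsets 7 of the 14 were higher (23.7% of all genes). The glucose sensor genes *SNF3* and *RGT2* were higher at 2.33 and 1.56, from 3 and 1 and from 8 and 1 counts in BY4741, and *SNF4*, a subunit of the Snf1 kinase, was lower at -0.75. Of 4 tested genes of gluconeogenesis and of removal of the regulatory sugar phosphate, *FBP26*, which breaks down the product of Pfk26, was higher at 0.84 and *MDH2* lower at -0.45. Of 9 genes of Fbp1 degradation, *VID28* was higher at 1.26, *UBC8* and *VID24* were lower at -0.60 and -0.41, and the other 6 were not called. Over all genes 32.4% were higher and 30.2% lower. *FBP26* had 20 and 18 counts in BY4741 and *VID28* 5 and 2, in classes where 51.0 and 52.7% of genes were called higher. With loess offsets no gene of these last lists was higher, and 1 gene of each was lower.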

How the data were processed

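The authors aligned reads with Novoalign (default settings) to R64-1-1, left out reads with several alignments or a soft-clipped 5′ end, and deposited counts of 5′ ends at each base of each strand, without normalization. The submitters' processing notes also name CASAVA 1.8.2. Whether reads sharing their molecular barcode of 8 nt were collapsed is not given in the sources used here. From these deposited counts, sums over windows of the RefSeq annotation were computed. Minus-strand positions were moved 42 bp to the right, the shift among those tried with the highest share of the pyrimidine-purine dinucleotide. It stood there at 77.0 to 78.8% of the better-used positions, against 23.4 to 23.8% as listed. Positions with few counts did not enter these shares. Positions shared by genes of a strand counted for each, and antisense counts left out 5′ windows and coding sequences of the opposite strand. Genes were tested where the 4 libraries together held 10 counts or more, in edgeR 4.0.16 (TMM, quasi-likelihood test, Benjamini-Hochberg adjustment, R 4.3.3) at an adjusted p below 0.1. limma 3.58.1 gave the loess offsets and DESeq2 1.42.0 an alternative test. Python 3.11.15, numpy 2.4.6, pandas 2.3.3, scipy 1.17.1, biopython 1.88 and matplotlib 3.10.9 were used. The fits were tested on simulated data. The depth was 375442 to 1267578 counts a library.

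All 10 members and *SET2* are named, and of each other list at most 2 called genes a direction, those with the largest 5′ change whose higher strain averaged 20 counts or more. Members, lists, tests and alternatives were chosen with earlier results of these data known. The alternatives were other scalings, filters and thresholds, other windows, high positions left out, distinct positions, thinning to 1 depth, a replicate block and single libraries left out. Leaving out shared positions, leaving out positions with 8 or more counts in BY4741 only, a 5′ window from 400 bp upstream and level classes with the BY4741 libraries exchanged were added after the data were seen. ChIP-Seq data of the study were not analysed here.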

Additional observations from a re-analysis of the deposited data

Results flagged for a closer look

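Sense 5′ ends from 251 to 600 bp upstream of the coding start lie outside the windows compared above, and in 4 members both set2Δ libraries exceeded both BY4741 libraries there, in CPM of the whole library. This region was counted for the members only, so the share of all genes with such a pattern is not known. With scaling to library totals the 5′ windows of all genes tested already had a median log2 fold change of 0.29. In *EMI2* there were 59.6 and 34.6 CPM in BY4741 and 72.6 and 60.9 in set2Δ, a ratio of 1.42, while its 5′ window was lower in set2Δ. Most of these counts lay 401 to 600 bp upstream, between *EMI2* and the divergent gene *GRH1*, with 20 and 10 raw counts in BY4741 and 68 and 49 in set2Δ. *PFK1* had 37.5 and 37.3 CPM against 45.8 and 46.4, a ratio of 1.23, beyond a main start that itself lies 233 bp upstream. *PFK27* had 13.2 and 10.7 against 20.5 and 16.4, a ratio of 1.54. In *GLK1* and *HXK2* both set2Δ libraries were below both BY4741 libraries, with 44.2 and 61.3 against 42.6 and 42.7 CPM in *GLK1* (ratio 0.810) and 3 and 1 against 1 and 1 raw counts in *HXK2*. *PGI1* had 2 and 0 raw counts against 6 and 5, a ratio of 2.10 that rests on few counts. None of these ratios was tested, and genes of few counts were higher in set2Δ as a class, as described above.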

How the results depend on the processing

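Of 628 values of members under other settings, 571 kept their direction and their side of the threshold, 26 changed sign, 17 lost the call and 14 gained it. The number of members lower in the 5′ window was 6 or 7 and that in the internal window 6 under every setting run, including a replicate block, which gave -2.36 for *HXK1* around the start and changed no call. The numbers did not pair the libraries (correlation of deviations -0.07 in the 5′ window and -0.08 inside genes), and the model of the difference already holds library as a factor. Members called higher in the 5′ window went from 0 to 1 with library totals, the minus strand as listed or the highest position left out, in each case *PFK27*, and those called higher inside genes from 1 to 2 with the minus strand as listed. In the antisense test 1 member was called higher with library totals or 5′ window scaling and 1 lower with loess offsets. In the test of the difference, members called higher went from 2 to 1 with the narrower or wider 5′ window, distinct positions, thinning or an adjusted p of 0.05, and ranged from 0 to 1 with single libraries left out, while those called lower went from 3 to 5 with distinct positions.

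No called gene changed sign. In the 5′ window *PFK26* became 0.13 with library totals and 0.015 with thinning, and ranged from -0.48 to 0.38 with single libraries left out, and *PFK27* -0.13 with loess offsets. Inside *EMI2* the change became 0.25 with library totals, 0.070 with 5′ window scaling, and ranged from -1.08 to 0.29 with single libraries left out. Inside *FBP1* it became -0.028 with DESeq2, -0.030 with its size factors, -0.034 and -0.036 with 100 or 300 bp left out at the start, -0.11 with the minus strand as listed, -0.0082 without positions of 8 or more counts, -0.47 with distinct positions, -0.66 without the highest position, and -0.12 without 250 bp upstream of same-strand genes, and it ranged from -0.53 to 0.78 with single libraries left out. Opposite *FBP1* it became 0.51 with library totals, 0.33 with 5′ window scaling and 0.11 without a filter, and opposite *PFK26* 0.38 and 0.20 with these scalings. The difference in *GLK1* became 0.34 without positions of 8 or more counts and 0.040 when only BY4741 set them. The cause of these changes was not tested.

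Over all genes, the 5′ window calls were 1640 higher and 1531 lower, and DESeq2 called 701 and 1201, distinct positions 392 and 670, and library totals 2134 and 1186, which raised increases from 51.7 to 64.3% of the calls and the median log2 fold change from 0.11 to 0.29. Opposite genes, increases were 79.0% of 315 calls, and library totals made them 96.4%, 5′ window scaling 94.5% and loess offsets 54.0%. The low counts of *PFK26*, *PFK27* and *FBP1* in BY4741 limit what can be seen there.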

Other observations

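*GID7*, which encodes a subunit of the ubiquitin ligase that marks Fbp1 for degradation, lies downstream of *GLK1* on the same strand. It was picked after its values were seen. Antisense 5′ ends opposite its internal window numbered 0 and 0 in BY4741 against 51 and 43 in set2Δ, at least 5.79-fold higher if the BY4741 libraries together are set to 3 counts, the limit that a count of 0 allows, a description with no test, since the gene was chosen for these counts. Within *GLK1* itself the antisense counts were 2 and 3 in BY4741 against 4 and 2 in set2Δ.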
